A study of Mus musculus with 4 samples.

Results

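Syndecans and glypicans are the membrane-bound proteoglycans that carry heparan sulfate at the cell surface, and 8 of their genes were measured here: the syndecans Sdc1, Sdc2, Sdc3 and Sdc4 and the glypicans Gpc1, Gpc3, Gpc4 and Gpc6. The members are these symbols at every probe set of the array that the platform annotation gives to them alone. That made 17 of the table's 22690 probe sets, 12 for syndecans and 5 for glypicans, and 8 of 12393 named genes. The other 2 mouse glypicans, Gpc2 and Gpc5, had 0 probe sets that the annotation gives to them alone. The set was chosen by gene family, with earlier results of the same 4 arrays in view, among them the genotype differences of Sdc4, already seen past 2-fold in both RNA types. The members' differences are therefore given as a description with no test.

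The arrays measured RNA from mouse embryonic fibroblasts, connective tissue cells cultured from embryos, of a strain that the labels spell C57/BJ6. There was 1 array for each of 4 labels: total RNA and ribosome-bound RNA (called polysome RNA) of cells labelled Npm1+/+ (wild type) and of cells labelled Npm1+/- (heterozygote). Npm1 encodes the nucleolar protein nucleophosmin, and the design of the series asks whether its deletion alters which RNAs are bound to ribosomes. The labels give no embryo number, culture, passage or age, and do not say whether the total and polysome RNA came from the same cells.

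Syndecans span the membrane, with a short cytoplasmic tail that binds PDZ proteins and kinases and an outer part that bears the sugar chains. Glypicans have a folded outer part and are held by a glycosylphosphatidylinositol (GPI) anchor, so they have no tail in the cytoplasm. The heparan sulfate chains of both bind growth factors, morphogens and matrix proteins, and in fibroblasts syndecan-4 is known for its place in focal adhesions beside integrins.

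Every value was an RMA value on the log2 scale, 1 per probe set and array, so that a difference of 1 is 2-fold. The brightest probe set, the one with the highest mean over the 4 arrays, stood for a gene. The background for each count was 7179 genes with a value at or above 7.53, the median of all values and called the floor, on at least 1 array. All 8 members belonged to it, and 15 of the 17 probe sets lay at or above the floor on all 4 arrays. No group was replicated. The only spread available was that between probe sets of the same gene: over 2700 genes, the disagreement between the 2 brightest had an SD of 0.32 (total RNA) and 0.28 (polysome RNA) for the genotype difference. It was 0.28 and 0.24 for the polysome difference under the wild-type and heterozygote labels. It covers probe behaviour on the same arrays and not variation between cultures.

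Npm1 did not follow the genotype labels. At its probe sets the heterozygote library differed from the wild-type library by 0.05 and 0.07 in total RNA and by -0.09 and 0.06 in polysome RNA. The position of these probe sets relative to the deletion was not analysed here, and a probe set outside it checks nothing, so all directions below are those between libraries by their label. All 10 fibroblast markers examined (collagens, Vim, Thy1, Pdgfra and others) lay at or above the floor on every array. Between genotype labels 8 of the 10 were lower in the heterozygote library in each RNA type, with medians of -0.16 and -0.16 where those of all genes were 0.19 and 0.11. Their part in the members' differences was not tested. Of 6 epithelial markers, 1 reached the floor in each total library and 0 in the polysome libraries. Epcam and Cdh1 were below it on all 4 arrays.

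**Figure D1:**
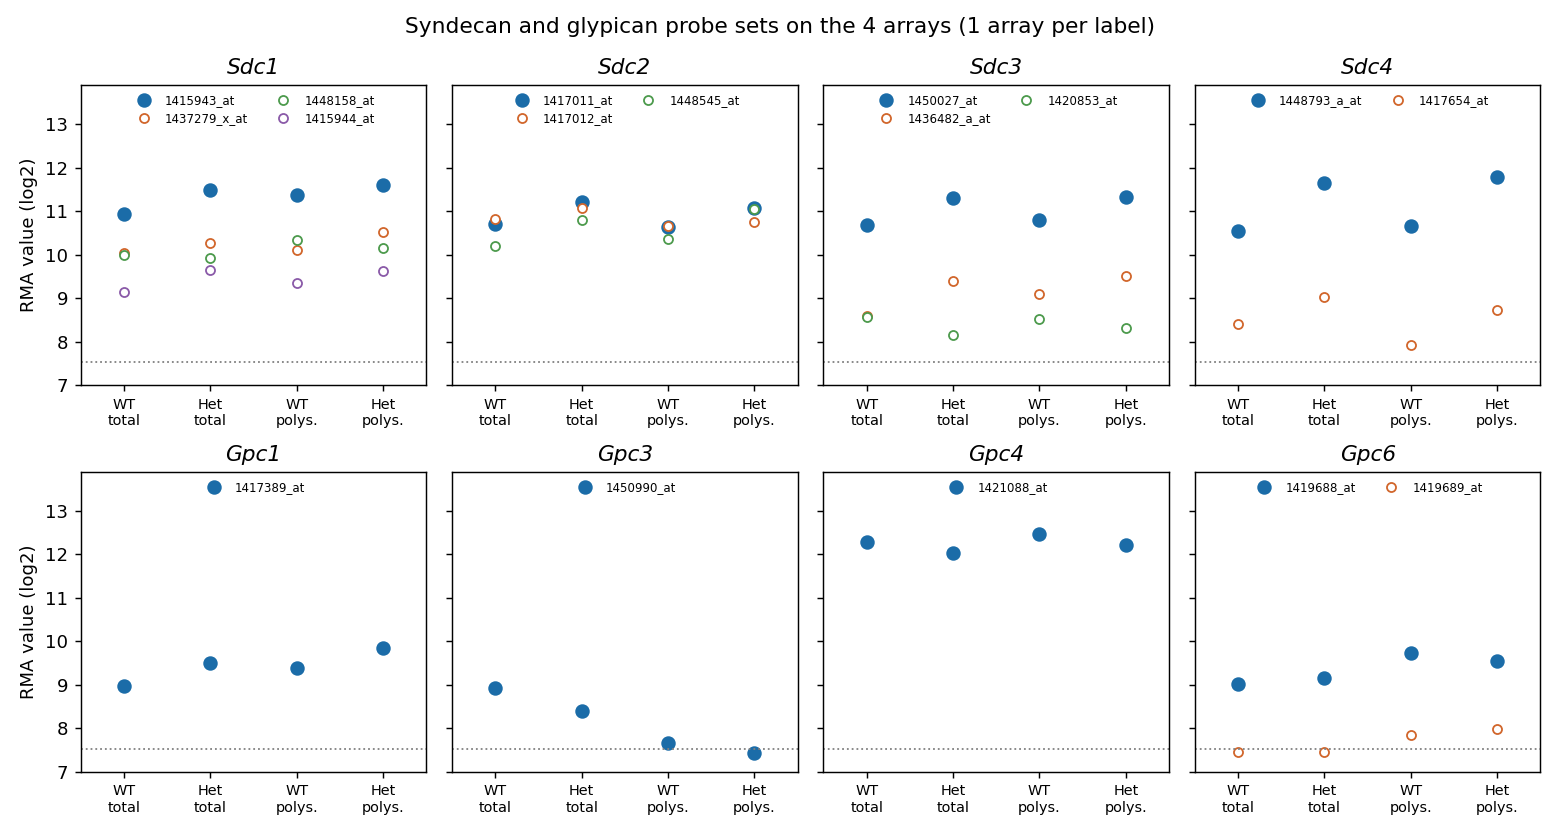
RMA values (log2, y axis) of the 17 syndecan and glypican probe sets on the 4 arrays (x axis: WT, wild-type label; Het, heterozygote label; total or polysome RNA), with the probe set that stands for the gene as a filled circle and the others as open circles; the dotted line is the floor of 7.53. Sdc4 was higher on both heterozygote arrays at both probe sets, and Gpc3 was lower on both polysome arrays.

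Among the syndecans, the genes read higher in the libraries labelled heterozygote. Sdc4 led, 2.16-fold higher in total RNA and 2.19-fold higher in polysome RNA, and Sdc3, Sdc2 and Sdc1 followed at 1.42-fold to 1.53-fold in total RNA. The glypicans were divided. Gpc1 was 1.44-fold higher in the heterozygote total library, Gpc3 was 1.44-fold lower and Gpc4 1.19-fold lower, and Gpc6 differed by 1.11-fold.

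Sdc4, the syndecan of focal adhesions, read 10.53 in wild-type total RNA, 11.64 in heterozygote total RNA, 10.66 in wild-type polysome RNA and 11.78 in heterozygote polysome RNA. Both heterozygote libraries lay above both wild-type libraries, with 0.99 between the nearest of them, whereas the libraries of the same genotype label were 0.12 and 0.14 apart. The differences between genotype labels were 1.11 in total and 1.13 in polysome RNA. In total RNA 7 of the 7179 genes had a larger difference in that direction, and in polysome RNA 2 had. The dimmer probe set read 8.40, 9.03, 7.92 and 8.72 on the same arrays, in the same order of labels. It placed the heterozygote libraries higher too, by 0.62 and 0.80, which is short of 2-fold.

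The upstream sequence of Sdc4 is shown because it was the member with the largest genotype difference, together with that of Gpc3, which had the largest difference between total and polysome libraries. Both are the 250 bases before the gene's start, 5′ to 3′ on the gene's strand, from RefSeq with build GRCm38.p6, which was matched for 5 of the 8 members (Sdc1, Sdc3, Sdc4, Gpc3 and Gpc4). The Sdc4 window is chr2:164443189-164443438 on the minus strand and the Gpc3 window chrX:52613975-52614224 on the minus strand. Capitals mark GC boxes (GGGCGG on either strand).
Sdc4: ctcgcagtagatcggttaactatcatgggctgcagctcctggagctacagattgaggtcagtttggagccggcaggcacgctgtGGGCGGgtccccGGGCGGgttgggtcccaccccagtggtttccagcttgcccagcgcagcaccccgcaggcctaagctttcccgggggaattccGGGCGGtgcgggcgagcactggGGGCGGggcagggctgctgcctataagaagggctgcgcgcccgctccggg
Gpc3: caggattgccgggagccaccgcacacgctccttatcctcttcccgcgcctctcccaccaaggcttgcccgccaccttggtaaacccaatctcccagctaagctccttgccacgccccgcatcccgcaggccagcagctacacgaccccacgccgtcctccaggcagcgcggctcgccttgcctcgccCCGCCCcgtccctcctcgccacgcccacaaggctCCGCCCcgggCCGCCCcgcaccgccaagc

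Sdc4 held 4 GC boxes in this window, Sdc1, Sdc3 and Gpc3 held 3 each and Gpc4 held 1, and 32.7% of all 32851 promoter windows of that length held at least 1. The AP-1 element TGANTCA (6.75% of windows), the E-box CACGTG (6.02%) and the TATA box TATAAA (12.4%) matched in none of the 5 members. The CCAAT box (CCAAT, 33.8%) matched once in Sdc1 and once in Gpc3. GC content was 68.0% for Sdc4 and 71.6% for Gpc3, against a median of 52.4% over all windows. These matches describe letters in the window and were not related to the array values.

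Sdc3, a syndecan with a long outer part best known from neural tissue, read 10.68 and 11.29 in wild-type and heterozygote total RNA and 10.80 and 11.33 in the polysome libraries. The heterozygote libraries were again the higher on both sides, by 0.61 (1.53-fold) and 0.53 (1.44-fold). Its probe sets disagreed. One of the dimmer pair gave 0.80 and 0.41 and the dimmest, which read 8.15 to 8.57, gave -0.41 and -0.21, so the sign of the Sdc3 difference depends on which probe set is read.

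Sdc2, the main syndecan of mesenchymal cells, read 10.71 in wild-type and 11.22 in heterozygote total RNA. In polysome RNA it read 10.62 and 11.08. The differences were 0.51 (1.42-fold) and 0.46 (1.37-fold). All 3 of its probe sets put the heterozygote libraries higher, by 0.25 to 0.58 in total RNA and by 0.09 to 0.69 in polysome RNA.

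Sdc1, the main syndecan of epithelia and plasma cells, read 10.93 and 11.48 in total RNA and 11.36 and 11.60 in polysome RNA, wild type first. The difference was 0.54 (1.46-fold) in total RNA and 0.24 (1.18-fold) in polysome RNA, the latter within the SD between probe sets. Of its 4 probe sets 3 were higher in the heterozygote libraries of both RNA types, and the other gave -0.07 and -0.19.

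Over the 4 syndecans, the median difference was 0.58 (total RNA) and 0.49 (polysome RNA), where the median of all genes was 0.19 and 0.11. Of the 12 syndecan probe sets, 10 were above 0 in each RNA type, where 66.1% and 62.9% of all genes were at their brightest probe set. Probe sets of the same gene are not independent. At the brightest probe set all 4 genes lay above the median gene in both RNA types. Relative to the median gene, a dimmer Sdc1 probe set was at -0.26 and -0.30 and a dimmer Sdc3 probe set at -0.60 and -0.32. A dimmer Sdc2 probe set was at 0.06 and -0.02. The sign at the brightest probe set held for all 4 genes under each of the 3 other scalings tried (Sdc1 came nearest to 0, at 0.10 in polysome RNA). They did not move by like amounts: Sdc4 was 0.50 above the next syndecan, Sdc3, in total RNA and 0.60 above it in polysome RNA.

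**Figure D2:**
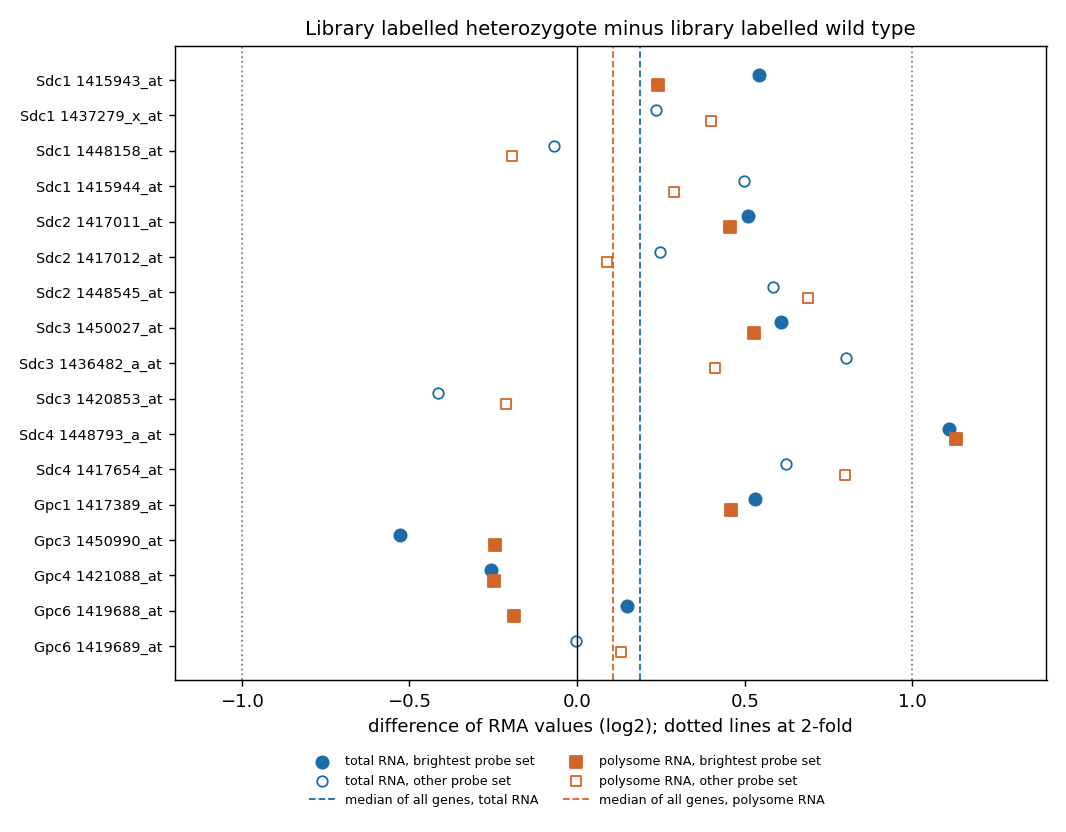
Difference of RMA values (log2, x axis) between the libraries labelled heterozygote and wild type for each of the 17 probe sets (y axis), in total RNA (circles) and polysome RNA (squares); filled symbols are the brightest probe set of a gene, dashed lines the median of all genes (0.19 and 0.11) and dotted lines 2-fold. The brightest probe set of Sdc4 lies past 2-fold in both RNA types, and Gpc3 and Gpc4 lie below 0 in both.

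Gpc1, a glypican broadly expressed in adult tissues, was represented by 1 probe set, which read 8.97 and 9.50 in total RNA and 9.38 and 9.84 in polysome RNA, wild type first. The heterozygote libraries were higher by 0.53 (1.44-fold) and 0.46 (1.38-fold), on the scale of Sdc1 to Sdc3. Its order of levels ran from wild-type total to heterozygote polysome RNA, with wild-type polysome and heterozygote total RNA only 0.12 apart in the middle.

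Gpc3, the glypican whose loss in humans causes an overgrowth syndrome, had a single probe set that read 8.94 in wild-type total RNA, 8.41 in heterozygote total RNA, 7.67 in wild-type polysome RNA and 7.42 in heterozygote polysome RNA. The last of these is below the floor. Heterozygote libraries were lower in both RNA types, by a difference of -0.53 (1.44-fold) and -0.24 (1.18-fold), the second within the SD between probe sets. Gpc4, which lies next to Gpc3 on the X chromosome with 0 annotated genes between them, read 12.28 and 12.03 in total RNA and 12.47 and 12.22 in polysome RNA. Its differences were -0.26 and -0.25, both within that SD. Relative to the median gene, Gpc3 and Gpc4 stood at -0.72 and -0.44 in total RNA and at -0.35 and -0.35 in polysome RNA. Each of these exceeds the SD between probe sets, so the comparison with it depends on whether the median gene is subtracted.

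Gpc6, a glypican of the developing skeleton, read 9.01 and 9.16 in total RNA and 9.73 and 9.54 in polysome RNA at its brighter probe set. The genotype difference was 0.15 in total RNA, where its sign turned with the scaling (-0.03 to 0.15), and -0.19 in polysome RNA. The dimmer probe set gave -0.0040 and 0.13. None of these exceeded the SD between probe sets. Relative to the median gene the brighter probe set stood at -0.04 and -0.29, the second just past the SD of 0.28. Over the 4 glypicans the medians were -0.05 (total) and -0.22 (polysome).

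Counted at 2-fold in total RNA, 1 of the 8 members (Sdc4) was higher in the heterozygote library, where 0.237% of the 7179 genes were, and 0 were lower, where 1.49% were. In polysome RNA 1 member (Sdc4) was higher, against 0.0836% of genes, and 0 were lower, against 1.17%. At 1.5-fold, Sdc3 joined Sdc4 on the higher side in total RNA (2 of 8, against 7.42% of genes) and Sdc4 stood alone in polysome RNA (1 of 8, against 2.08%). On the lower side 0 of 8 reached 1.5-fold in either, against 6.23% and 5.86% of genes. Of the 8 genes, 6 were above 0 in total RNA and 5 in polysome RNA, shares near the 66.1% and 62.9% of all genes. The count for Sdc4 describes the value for which the family was chosen. The median of all genes in total RNA was 0.19, 0.10 after quantile normalisation and 0.03 after the loess trend was subtracted. Relative to the median gene Sdc4 stood at 0.92 in total RNA, short of 2-fold, and at 1.02 in polysome RNA. The Sdc4 difference ranged from 0.88 to 1.11 in total and from 0.98 to 1.14 in polysome RNA over the scalings.

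Between total and polysome libraries the member with the largest difference was Gpc3, which was 2.41-fold lower in the polysome library of the wild-type label and 1.98-fold lower in that of the heterozygote label. Gpc6 and Gpc1 were higher there under both labels, Sdc1 was 1.34-fold higher under the wild-type label, and no syndecan reached 1.5-fold at its brightest probe set. The labels of this comparison concern which RNAs are held on ribosomes.

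The Gpc3 differences were -1.27 with the wild-type and -0.98 with the heterozygote label. Both total libraries lay above both polysome libraries, with 0.74 between the nearest. Of the 7179 genes, 13 were lower in the wild-type and 28 in the heterozygote comparison. Because the polysome values were at the floor (7.67 and 7.42 against 7.53), the size of this fold is uncertain, and no other probe set was available to check it. Its neighbour Gpc4 went the other way, at 0.18 and 0.19, against medians of all genes of 0.14 and 0.07.

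Gpc6 was higher in the polysome library, by 0.72 (1.64-fold) with the wild-type label and 0.38 (1.30-fold) with the heterozygote label. Its dimmer probe set gave 0.39 and 0.53, from total values of 7.45 in both libraries, below the floor. Gpc1 was higher by 0.42 and 0.34. Both genes exceeded the SD between probe sets in each comparison. Relative to the median gene, Gpc1 under the wild-type label was at 0.27, just within the SD of 0.28.

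Among syndecans the brightest probe sets gave 0.43 and 0.12 for Sdc1, -0.09 and -0.14 for Sdc2, 0.12 and 0.04 for Sdc3 and 0.12 and 0.14 for Sdc4, wild-type label first. Among these values that of Sdc1 under the wild-type label alone exceeded the SD between probe sets. With other scalings the sign of Sdc3 turned under both labels and that of Sdc4 under the wild-type label. At its dimmer probe set Sdc4 was lower in the polysome libraries, by -0.49 and -0.31, so its probe sets opposed each other here although they had the same sign between genotype labels. Those of Sdc2 also opposed each other: the dimmest gave 0.16 and 0.27 and the remaining one -0.15 and -0.31. The dimmer probe sets of Sdc3 gave 0.50 and 0.11, and -0.04 and 0.16.

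**Figure D3:**
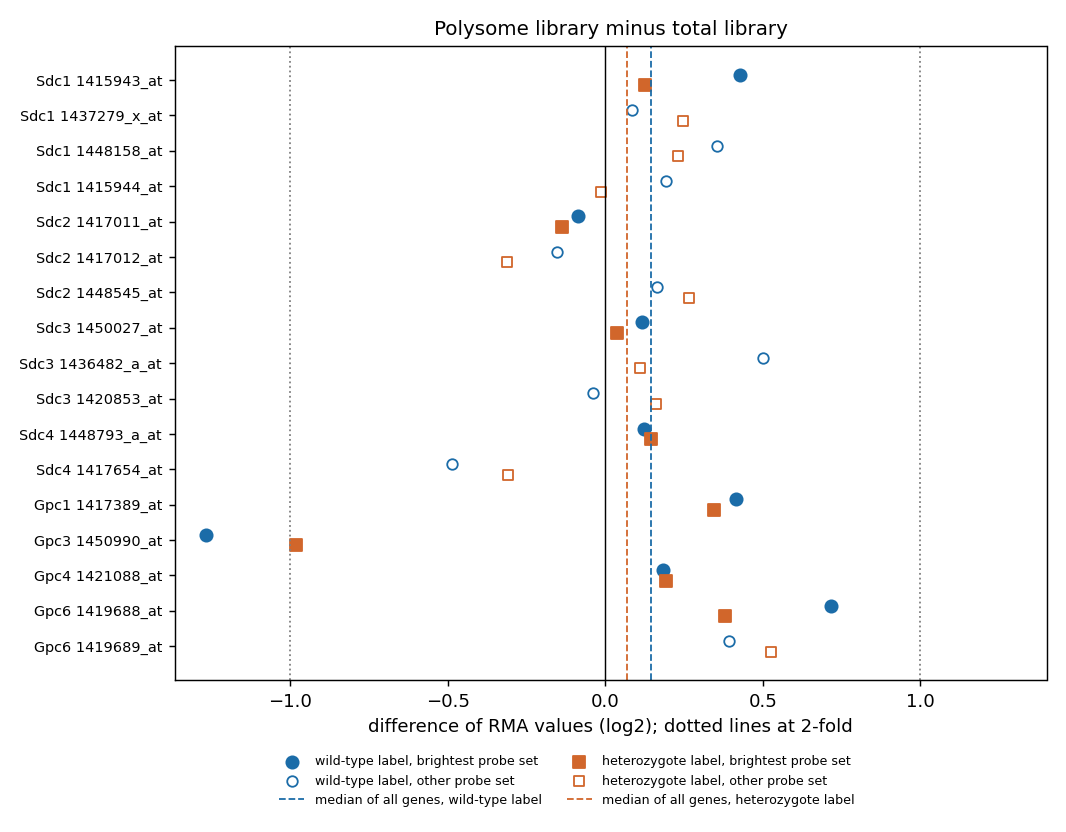
Difference of RMA values (log2, x axis) between polysome and total libraries for each of the 17 probe sets (y axis), under the wild-type label (circles) and the heterozygote label (squares); filled symbols are the brightest probe set, dashed lines the median of all genes (0.14 and 0.07) and dotted lines 2-fold. Gpc3 lies at -1.27 and -0.98, and all Gpc1, Gpc4 and Gpc6 symbols lie above 0.

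At 2-fold, 1 of 8 members (Gpc3) was lower in the wild-type polysome library, against 0.39% of genes, and 0 were higher, against 0.529%. Under the heterozygote label 0 were lower (0.362% of genes) and 0 higher (0.404%). Gpc3 fell just short of the threshold there and passed it under each of the 3 other scalings, down to -1.09. The median over members was 0.15 and 0.13. Macrophage markers differed in the same comparison. Of 14 on the array, 13 and 11 were above 0 in the polysome library under the wild-type and heterozygote labels, where 75.6% and 65.1% of the 7179 genes were. Under each label 6 were at least 2-fold higher, where 0.529% and 0.404% of genes were. Their summed level on the linear scale was 1373 and 1663 in the wild-type and heterozygote total libraries and 3196 and 4178 in the polysome libraries, with 3, 3, 7 and 9 of the 14 at or above the floor. Between genotype labels 14 of these markers were above 0 in total and 11 in polysome RNA, with medians of 0.18 and 0.19. Of all genes 66.1% and 62.9% were above 0, with medians of 0.19 and 0.11. The part of the macrophage markers in the members' differences was not tested. In RNA from a whole culture, fewer cells of a type and less RNA per cell cannot be told apart.

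The polysome difference under the heterozygote label minus that under the wild-type label, called the association difference, was below 1.5-fold for each member. It ranged from -0.34 (Gpc6) to 0.28 (Gpc3), with a median of -0.06 against -0.07 for all genes. All genes spread narrowly here: Gpc3 lay above 97.0% of them, and Gpc6 and Sdc1 above 4.04% and 6.35%. Sdc4 was at 0.02 and Gpc4 at 0.01. Gpc6, Sdc1 (-0.30) and Gpc3 exceeded the SD between probe sets of 0.22, but the other Gpc6 probe set gave 0.13 and another Sdc1 probe set 0.16. Gpc3 has a single probe set, and its polysome values were at the floor (7.67 for wild type and 7.42 for heterozygote). The size of its association difference is therefore uncertain. A dimmer Sdc3 probe set was at -0.39, where the brightest was at -0.08. At 1.5-fold, 0 of 8 members were called in either direction, where 0.167% of genes were called higher and 0.139% lower. At 2-fold 0 genes of 7179 were called.

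Genes with the most similar profile were sought for the 3 members with the widest range over the 4 arrays, by Euclidean distance between log2 values after subtracting each gene's mean over the 4 arrays. For Sdc4 (range 1.25) they were the splicing regulator gene Rbfox2 (distance 0.10), the deoxycytidine kinase gene Dck (0.11) and Purb (0.13), which encodes a purine-rich element binding protein. For Gpc3 (range 1.51) the nearest were farther off: the transcription factor gene Six2 (0.30), the semaphorin gene Sema7a (0.33) and Serping1 (0.33), which encodes the C1 inhibitor. For Gpc1 (range 0.88) they were Mrpl39 (0.04), Nfyc (0.04) and Hmgxb3 (0.04). With 4 arrays, closeness of this kind describes these libraries only.

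The genes that build, trim and use heparan sulfate were read from lists of 88 symbols, of which 77 were on the array and 53 reached the floor. Of those 53, 0 were at least 2-fold higher and 1 was at least 2-fold lower in the heterozygote library in each RNA type, the receptor gene Igf2r. Between total and polysome libraries, 0 passed 2-fold under either genotype label. Counts above 0 in the lists below are to be read against the 66.1% (total RNA) and 62.9% (polysome RNA) of all genes above 0, and list medians against 0.19 and 0.11.

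Of the enzymes of the linker that joins the chain to its core, the 4 that reached the floor were above 0 in total RNA (median 0.35). In polysome RNA the median of these 4 was 0.16. The galactosyltransferase genes B3galt6 (0.46) and B4galt7 (0.41) led in total RNA. B4galt7 reached the floor only in the heterozygote polysome library (7.79), through which it entered this count. B3galt6 was below the floor in wild-type total RNA (7.38), so the sizes of both differences are uncertain. Counting also those below the floor, 5 of 5 and 4 of 5 on the array were above 0. Of 4 chain polymerase genes 3 were above 0 in both RNA types (medians 0.33 and 0.32), and 3 of 5 on the array, shares near those of all genes. Extl3, which starts the chain, was at 0.60 and 0.56, Ext1 at 0.37 and 0.42, and Ext2, its partner in the polymerase, at -0.08 and -0.18. Of 6 modifying enzyme genes 5 were above 0 in both (medians 0.32 and 0.19), with the epimerase gene Glce at 0.49 and 0.35 and the sulfotransferase gene Hs6st1 at 0.48 and 0.56, while the sulfatase gene Sulf2 was at -0.02 and -0.07. Over all 12 on the array 8 were above 0 in each RNA type, though not the same 8, again near the share of all genes. The median of the 12 in total RNA was 0.13, below that of all genes.

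The other proteoglycan cores contrasted with the syndecans. Of 6 that reached the floor, 5 were below 0 in total and in polysome RNA (medians -0.52 and -0.47). Counting also Srgn, which lay below the floor and was at 0.07 and 0.44, 2 of 7 on the array were above 0. Nrp1, a co-receptor for VEGF and semaphorins, was at -0.79 and -0.46, and the basement membrane proteoglycan genes Col18a1 (-0.71 and -0.90), Agrn (-0.58 and -0.80) and Hspg2 (-0.47 and -0.49) were also lower. Cd44, which carries heparan sulfate in some splice forms, was at 0.09 and 0.04.

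Among 6 genes of shedding and release, Furin, a proprotein convertase that activates sheddases, was at 0.64 and 0.53. The others were below 0 in total RNA, from -0.04 (Adam17) to -0.38 (Mmp9). In both total libraries Mmp9 was below the floor (6.99 for wild type and 6.61 for heterozygote). Over 9 cytoplasmic partners of syndecans the medians were 0.20 and 0.21, with 6 and 5 genes above 0. The adaptor gene Gipc1 was at 0.57 and 0.30 and the exchange factor gene Tiam1 at 0.46 and 0.51. Tiam1 was below the floor in both wild-type libraries (7.22 in total and 7.21 in polysome RNA) and entered the list through its heterozygote values. Ezr was lower, at -0.34 and -0.35. Syntenin, the PDZ protein encoded by Sdcbp, was at 0.17 and 0.23, near the median gene. Heparan sulfate binding ligands had medians of 0.22 and 0.10 over the 9 genes that reached the floor, with Hbegf at 0.90 and 0.66 and Bmp4 at 0.50 and 0.46. Over all 19 ligands on the array the medians were 0.06 and 0, below those of all genes. Over 9 receptor genes the medians were -0.23 and 0.02. Igf2r, which carries IGF2 and lysosomal enzymes, was at -1.17 and -1.08, and Ptch1, the Hedgehog receptor, at 0.97 and 0.60. Ptch1 was below the floor in both wild-type libraries (7.23 in total and 7.15 in polysome RNA). It entered the list through its heterozygote values, so the size of its difference is uncertain.

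**Figure D4:**
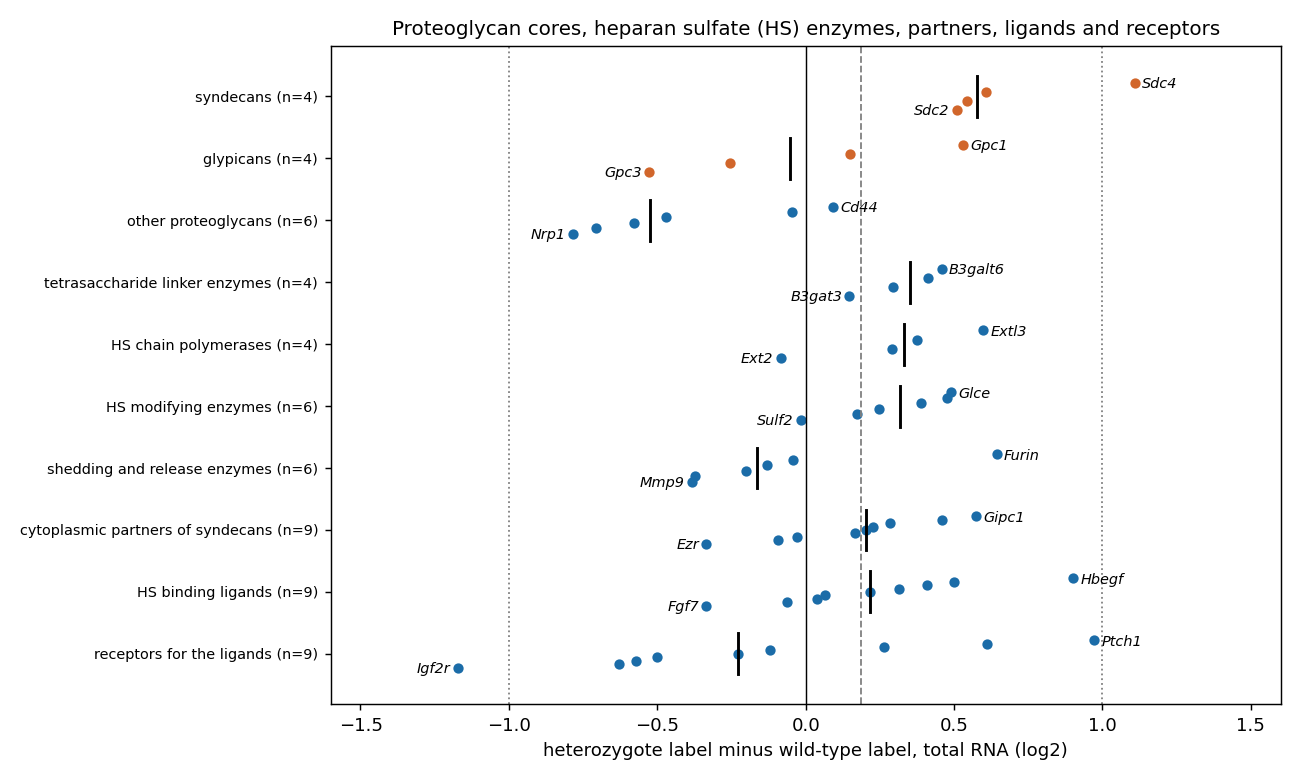
Difference between the heterozygote and wild-type labels in total RNA (log2, x axis) for the syndecans and glypicans (orange) and the related genes that reached the floor (blue), by list (y axis, n genes); black bars are list medians, the dashed line the median of all genes (0.19) and dotted lines 2-fold, with the lowest and highest gene of each list named. The syndecan median is 0.58 and that of the other proteoglycans -0.52.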

How the data were processed

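The deposited table holds the authors' log2 values for 22690 probe sets on 4 arrays, 1 per group. Per the submitters' processing notes they were made with RMA in affy 1.56.0 and R 3.4.3; the settings and the genome build are not given in the sources used here. Array medians lay between 7.47 and 7.59. No detection calls were used, and precision is limited by the 4 arrays.

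Groups came from the sample titles. Probe sets with 1 symbol in the platform annotation (20380, manufacturer's controls left out) were named; 20351 had an Entrez number in the RefSeq table, which changed 0 symbols. The differences were computed with pandas 2.3.3 and numpy 2.4.6, for all genes alike, and were checked on simulated arrays. With 1 array per group no p-value was computed.

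The members, the related gene lists, the marker lists and the rule for named genes (every member, list genes past 2-fold or with the largest difference, and nearest profiles) were chosen with earlier results of these data known. Further list genes of known function were named after their values were seen. Alternatives were other choices of probe set, median centring, quantile normalisation, a loess trend (span 0.3, statsmodels 0.14.6), other floors, and thresholds of 1.5-fold and 3-fold.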

Additional observations from a re-analysis of the deposited data

Results flagged for a closer look

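Of the 17 probe sets, 4 changed direction between conditions, and the difference between the directions was not tested. The brighter Gpc6 probe set differed between genotype labels by 0.15 in total RNA and by -0.19 in polysome RNA. The dimmer one did the opposite, at -0.0040 and 0.13. Between polysome and total libraries, the dimmest Sdc1 probe set was at 0.19 under the wild-type label and -0.014 under the heterozygote label. The dimmest Sdc3 probe set was at -0.041 and 0.16. Each of these 8 values lies within that comparison's SD of disagreement between probe sets.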

How the results depend on the processing

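The count of 1 member at least 2-fold higher in heterozygote total RNA became 0 when all probe sets of a gene were averaged, with the second brightest probe set, quantile normalisation, the subtracted loess trend and the 3-fold threshold, and 2 at 1.5-fold. In polysome RNA the 1 became 0 when all probe sets of a gene were averaged, with the second brightest probe set, the loess trend and the 3-fold threshold. The 1 member lower in the wild-type polysome library became 0 at 3-fold and with the floor at the 75th percentile (9.33), which leaves Gpc3 out, and 1 member was higher there at 1.5-fold. Under the heterozygote label 0 lower became 1 with median centring, quantile normalisation, the loess trend and the 1.5-fold threshold. The other member counts and the 5 medians over members kept within 1.5 times or within the SD between probe sets. The association median turned from -0.06 to 0.07 with the second brightest probe set. Of 395 single-gene values under the alternatives, 15 moved by more than that SD. Many of the 395 could not move, because other floors and thresholds leave a gene's difference unchanged. Gpc1, Gpc3 and Gpc4 have 1 probe set each, so other choices of probe set left them unchanged too. Reversal was counted only for values past 2-fold, and 0 of these reversed. Smaller differences did change sign, for example that of Sdc4 between polysome and total libraries (-0.49 to 0.12 and -0.31 to 0.14, wild-type label first). With the 2-fold threshold kept, the counts of all genes higher ranged from 5 to 21 in total and from 2 to 8 in polysome RNA, and lower from 83 to 192 and from 63 to 129. For the polysome difference they ranged, again at 2-fold, from 16 to 59 higher and 9 to 47 lower (wild-type label), and from 10 to 51 and 9 to 44 (heterozygote label). At 1.5-fold and 3-fold the higher counts were 533 and 0 (genotype difference in total RNA), 149 and 1 (in polysome RNA), 262 and 9 (polysome difference, wild-type label) and 161 and 7 (heterozygote label), and the lower counts 447 and 12, 421 and 10, 112 and 8, and 97 and 8. The labels give no replicate numbers, so no fit with a replicate block was made. Where the cause of a change is not stated, the cause was not tested.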

Other observations

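Among the related genes below the floor, 2 differed by 2-fold or more between total and polysome libraries. Fgf1, a growth factor that binds heparan sulfate, read 5.71 and 5.83 in wild-type and heterozygote total RNA and 4.65 and 4.50 in polysome RNA, differences of -1.06 and -1.34. Srgn, which encodes serglycin, the proteoglycan of blood cell granules, was higher in the polysome libraries by 0.82 and 1.20, from 5.06 and 5.12 in total RNA. All of these values lie below the floor of 7.53, so the sizes of the folds are uncertain.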
